A study of Danio rerio with 8 samples.

Results

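Semaphorins, plexins and neuropilins are the ligands, receptors and co-receptors of a guidance system by which cells signal to each other. Their genes were followed in cells sorted by an osteoblast reporter from zebrafish (Danio rerio) larvae. The members were all rows of the deposited gene table whose symbol begins with sema or plxn, with letter case ignored, together with nrp1a, nrp1b, nrp2a and nrp2b. They numbered 48 of the 32520 rows, namely 31 semaphorins, 13 plexins and 4 neuropilins. The semaphorins comprised 12 genes of class 3, 9 of class 4, 3 of class 5, 6 of class 6 and 1 of class 7, and the plexins comprised 5 of type A, 6 of type B, 1 of type C and 1 of type D. The symbols PLXNA1 and SEMA4F stand in capitals in the table, and plxnb2a stands on 2 rows with different identifiers. The gene sema4d was not analysed here.

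All semaphorins share an extracellular sema domain. Those of class 3 are secreted, those of classes 4, 5 and 6 span the membrane, with thrombospondin repeats in class 5, and that of class 7 is held by a lipid anchor. Plexins are their signalling receptors and carry a cytoplasmic domain that switches off small GTPases of the Ras superfamily, while neuropilins have a short cytoplasmic tail and act as co-receptors for class 3 semaphorins, next to type A plexins, and for VEGF. The system is best known from axon and blood vessel guidance. In mouse bone, Sema3A is known to restrain osteoclasts and favour osteoblasts through neuropilin-1, and Sema4D from osteoclasts is known to restrain osteoblasts through plexin-B1.

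The study sorted living cells of the line Tg(sp7:sp7-GFP), genotype ulg071 Tg in the AB strain, in which GFP cDNA sits inside the endogenous gene of the osteoblast transcription factor sp7. A heterozygous parent was crossed to a wild-type fish, fluorescent offspring were kept, and each dissociation pooled about 100 to 150 larvae at 4 days post fertilization. P2 is the strongly fluorescent population, with 3 libraries (replicates 1, 2 and 4), and P1 is the weakly fluorescent one, with 5 libraries (replicates 1, 2, 3, 5 and 6). Both populations thus shared age, strain and transgene, and were sorted apart by brightness, so the comparison asked how the guidance genes differ between strongly and weakly sp7-expressing cells. Values below are normalized read counts, that is, reads of a gene divided by the size factor of the library, and are given in the order of the replicates above. They are not corrected for transcript length, so levels were compared between libraries and not between genes.

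The libraries held between 7510312 and 13034333 gene reads. The gene sp7 stood at 1227, 771 and 1028 in P2, against 99.1, 30.0, 57.3, 38.1 and 63.7 in P1, so the sort was visible in every library (log2 fold change 4.20, SE 0.37, limma adjusted p = 2.30e-05). The summed level of 12 osteoblast markers ranged over 66189 to 93251 in P2 and 7179 to 10128 in P1. Most of the sum came from col10a1a and col1a1a, with means of 40777 and 20649 in P2 and 199 and 8318 in P1. Of 11 tested markers 9 were called higher in P2 and none lower. The marker bglap was hardly seen in either population, at 0 in every P2 library and at most 0.185 in P1. P2 replicate 2 stood apart from the other P2 libraries. In a principal component analysis of 500 genes with the highest variance, it lay at 21.5 on component 1 (61.5% of the variance), where the other P2 libraries lay at 68.9 and 67.9 and the P1 libraries between -41.9 and -23.1, and its summed muscle markers reached 28048, against 209 and 208 in P2 replicates 1 and 4 and 2177 to 56236 in P1.

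Ligands, receptors and co-receptors each held genes that were higher in P2, and a few semaphorins and plexins were lower. Of 44 members with enough reads to be tested, 16 were called higher in P2 (36.4%) and 4 lower (9.09%), while the same test called 7.57% of all genes higher and 7.05% lower. A call is an adjusted p under 0.05 in a limma fit of log2(normalized read count + 1) over 18475 genes. The genes called higher were the neuropilins nrp2a, nrp2b and nrp1a, the plexins plxna3, PLXNA1, plxna1a and plxnb2b, and the semaphorins sema3c, sema3e, sema3ga, sema4ba, sema4c, sema5a, sema6a, sema6bb and sema6dl. The genes called lower were plxna4, plxnc1, sema3fa and sema3fb. In sorted bulk samples, fewer cells of a type and less RNA per cell cannot be told apart, and this holds for every difference given here.

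By family, 3 of 4 neuropilins, 4 of 11 tested plexins and 9 of 29 tested semaphorins were called higher, and 2 plexins and 2 semaphorins were called lower. The median log2 fold change was 1.91 over the neuropilins, 0.83 over the plexins and 0.64 over the semaphorins, against 0.00 over all genes tested. Over all members it was 0.71, with 30 positive and 14 negative values. Among semaphorin classes the medians were 0.68 in class 3, -0.13 in class 4, -0.29 in class 5 and 1.22 in class 6. All P2 libraries stood above all P1 libraries in 13 tested members, where 11.8% of all genes did so, and below them in 3, where 8.82% did. The 15 tested receptors and co-receptors had 7 higher, 2 lower and a median of 1.49. In all, 24 tested members were not called, and 25 of the 44 had an unadjusted p under 0.05.

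The balance of directions moved with the scaling. With size factors recomputed over these 8 libraries as a median of ratios, the median of all genes moved to -0.12, the share of called genes that were higher moved to 39.9%, against 51.8% under the deposited scaling, and the members called were 13 higher and 5 lower. All 20 called members kept their direction under each of the 23 alternatives in which they could be tested. When libraries were left out in turn, in 8 fits, 7 of these calls were kept throughout, namely nrp2a, nrp2b, plxna3, plxnc1, sema3fb, sema4c and sema6a.

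**Figure D1:**
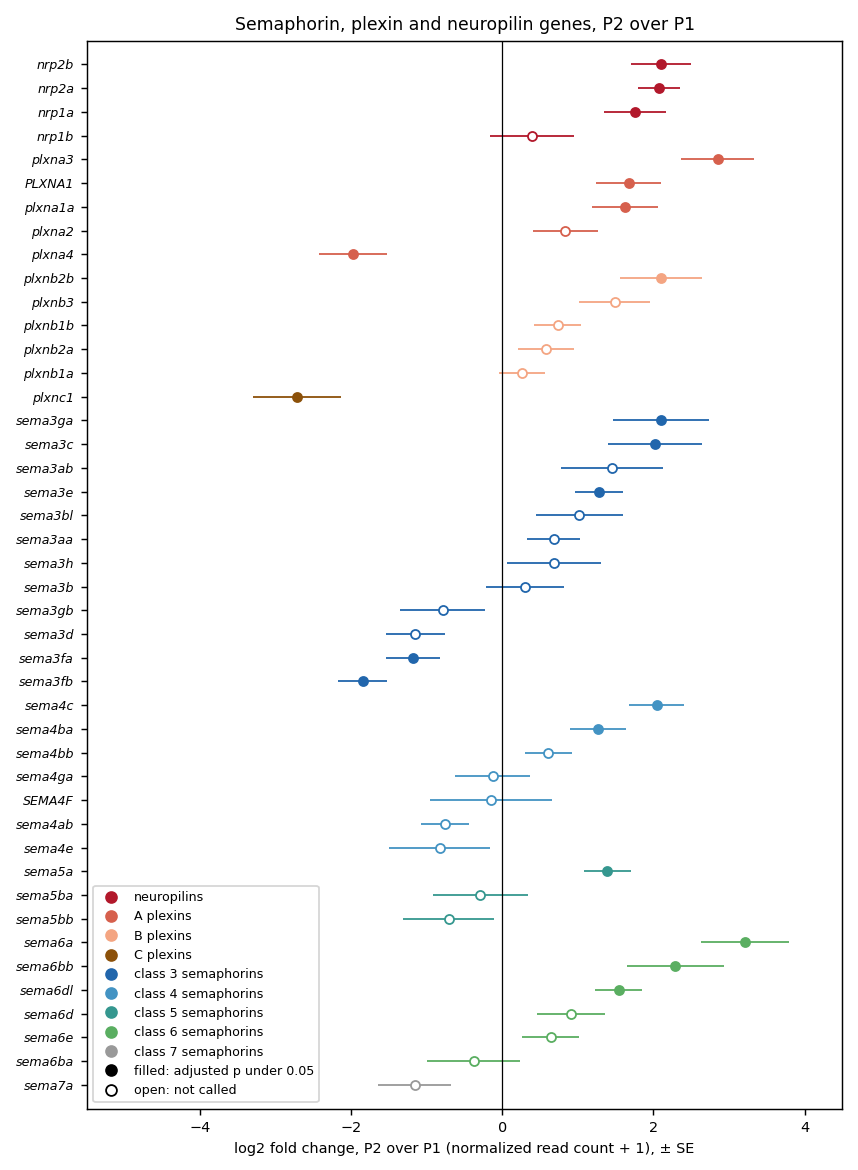
Log2 fold change of each tested member, P2 over P1, on the scale of log2(normalized read count + 1), with bars for the standard error, grouped by family in colour and with filled points for members called at an adjusted p under 0.05. The filled points to the left of 0 are plxna4, plxnc1, sema3fa and sema3fb, and the other 16 lie to the right, with sema6a at 3.21 and plxna3 at 2.85 farthest out.

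Of the neuropilins, 3 of 4 were called higher in P2, and the family had summed levels of 1857, 1379 and 2203 in P2, against 573, 410.5, 423, 358 and 406 in P1. The gene nrp2a (ENSDARG00000096546), the co-receptor known for Sema3F and VEGF-C, had 1097, 1099 and 1197 normalized read counts in P2, against 405, 235, 257, 249 and 225 in P1. Its P2 libraries lay close together and all stood well above the P1 libraries, of which replicate 1 was the highest. The mean was 1131 ± 57.0 in P2 (SD, n = 3) and 274 ± 74.3 in P1 (SD, n = 5), and the log2 fold change of 2.07 had an SE of 0.28 (limma adjusted p = 0.000658). Its duplicate nrp2b (ENSDARG00000038446) had 488, 187 and 610.3 in P2, against 114, 96.0, 89.9, 51.8 and 106 in P1. The groups did not overlap, but P2 replicate 2 stood far below the other P2 libraries (log2 fold change 2.10, SE 0.40, adjusted p = 0.00535). The gene nrp1a (ENSDARG00000102153), whose product is a co-receptor for Sema3A and VEGF-A, had 267, 86.7 and 370.3 in P2, against 50.5, 71.3, 64.6, 51.0 and 67.9 in P1. P2 replicate 2 was again the lowest P2 library and stood only a little above the highest P1 library (log2 fold change 1.75, SE 0.41, adjusted p = 0.0167). The nrp1a call was lost without P2 replicate 1 (adjusted p = 0.088) and without P2 replicate 4 (0.0898). The remaining neuropilin, nrp1b, was not called, and its P2 and P1 libraries overlapped.

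Among the type A plexins, the partners of neuropilins in class 3 signalling, 3 of 5 were called higher and 1 lower. The gene plxna3 (ENSDARG00000007172), known in zebrafish for guiding motor axons, had 592, 172 and 730.1 in P2, against 60.4, 64.1, 72.6, 27.1 and 81.9 in P1. Its groups were apart, with P2 replicate 2 lowest in P2 (log2 fold change 2.85, SE 0.48, adjusted p = 0.00255). This is a geometric mean fold of 7.20 on the scale with 1 added. The table holds 2 plexin A1 genes, and the table of zebrafish gene names gives both identifiers the symbol PLXNA1. In mouse, plexin-A1 is known as a receptor of Sema6D in osteoclasts and dendritic cells. The row PLXNA1 (ENSDARG00000114823) had 118, 64.7 and 145 in P2, against 27.2, 68.0, 27.9, 18.0 and 35.4 in P1. Here P1 replicate 2 stood above P2 replicate 2, so the groups overlapped by that pair of libraries (log2 fold change 1.67, SE 0.43, adjusted p = 0.0237). The row plxna1a (ENSDARG00000105452) had 166, 66.3 and 238 in P2, against 39.9, 70.0, 47.8, 24.4 and 51.4 in P1, and showed the same overlap (log2 fold change 1.62, SE 0.44, adjusted p = 0.0289). The PLXNA1 call was lost without P2 replicate 1 (adjusted p = 0.097), without P2 replicate 4 (0.108) and without P1 replicate 5 (0.052). With limma-voom it was lost too (adjusted p = 0.0502). The plxna1a call was lost in 5 of 8 fits that left out 1 library, namely without P2 replicate 1 (adjusted p = 0.114), without P2 replicate 4 (0.14), without P1 replicate 1 (0.052), without P1 replicate 3 (0.0501) and without P1 replicate 5 (0.0629), and also with limma-voom (0.062) and without a variance trend (0.0527). The remaining type A gene that was not lower, plxna2, was not called.

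The gene plxna4 (ENSDARG00000019328), known mainly from neurons, ran the other way, with 5.09, 18.4 and 18.1 in P2, against 34.7, 38.2, 76.8, 50.5 and 65.0 in P1. Its groups did not overlap, and P2 replicate 1 was the lowest library (log2 fold change -1.98, SE 0.45, adjusted p = 0.0143). The plxna4 call was lost without P2 replicate 1 (adjusted p = 0.0711). Of 16 tested neuron markers 4 were called lower (25%, against 7.05% of all genes) and none higher. Their summed level ranged over 112 to 905 in P2 and 517 to 2528 in P1, lowest in P2 replicate 1. P2 replicates 2 and 4, with nearly equal plxna4, had sums of 905 and 421. The sum of P2 replicate 2 stood above those of P1 replicates 1 (865) and 2 (517). The part of neuron markers in the plxna4 difference was not tested.

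Of the 5 tested type B plexins, receptors mainly of class 4 semaphorins, all had positive log2 fold changes and 1 was called. The gene plxnb2b (ENSDARG00000036985), a duplicate of the receptor known to bind Sema4C, had 66.8, 39.1 and 100.1 in P2, against 9.67, 37.2, 14.6, 5.37 and 18.5 in P1. The lowest P2 and the highest P1 value, both of replicate 2, nearly met (log2 fold change 2.10, SE 0.54, adjusted p = 0.0237). Its call was lost without P2 replicate 1 (adjusted p = 0.0889) and without P2 replicate 4 (0.112), and also with edgeR's quasi-likelihood test (0.0513). The other copy, plxnb2a on its well-covered row (ENSDARG00000003811), had 251, 96.6 and 249 in P2, against 147, 150.1, 139, 79.7 and 109 in P1. P2 replicate 2 lay inside the P1 range, and the gene was not called (log2 fold change 0.58, SE 0.37, adjusted p = 0.295), although it passed without that library (adjusted p = 0.0396). The gene plxnb1b (ENSDARG00000017211), a duplicate of the Sema4D receptor, had 114, 141 and 155 in P2, against 51.1, 108, 101, 91.3 and 70.2 in P1. All its P2 values lay above all P1 values, but the difference was small against the spread and did not pass (log2 fold change 0.73, SE 0.31, adjusted p = 0.131). The receptor known for Sema5A, plxnb3 (ENSDARG00000032990), missed the threshold narrowly and is named here after its values were seen. It had 37.3, 22.0 and 46.5 in P2, against 6.95, 26.9, 8.85, 12.3 and 9.10 in P1, where P1 replicate 2 stood inside the P2 range (log2 fold change 1.49, SE 0.47, adjusted p = 0.0519). It passed without P1 replicate 2 (adjusted p = 0.0162), without P2 replicate 2 (0.0301), with robust shrinkage (0.0478) and over genes with at least 10 reads in every library (0.0384). The remaining type B gene, plxnb1a, was not called.

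The single type C plexin, plxnc1 (ENSDARG00000015278), the receptor known for Sema7A and found on immune and pigment cells, was hardly seen in P2. It had 1.02, 4.13 and 0.293 in P2, where the 3 libraries together held 19 reads, against 6.95, 14.3, 12.4, 27.9 and 18.9 in P1, where 5 libraries held 318 reads. The groups did not overlap, and the lowest P1 library stood above the highest P2 library, replicate 2 (log2 fold change -2.72, SE 0.58, adjusted p = 0.00987). The call was kept in every fit that left out 1 library, with adjusted p of at most 0.0488, and was lost with limma-voom (adjusted p = 0.0562). Macrophage markers were also lower in P2. Of 9 tested, 5 were called lower (55.6%, against 7.05% of all genes) and none higher. Their summed level ranged over 23.8 to 67.9 in P2 and 121 to 209.8 in P1. The markers cd74a and c1qa were at 0 in every P2 library. The macrophage sum was highest in P2 replicate 4, where plxnc1 was lowest, but csf1ra alone held 57.4 of the 67.9 there. In P1 replicate 5, where plxnc1 was highest, the macrophage sum was 189, below the highest P1 sum. Of 8 tested markers of neural crest, pigment cells and glia 1 was called lower, with summed levels of 19.9 to 517 in P2 and 61.7 to 755 in P1. Their part in the plxnc1 difference was not tested.

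**Figure D2:**
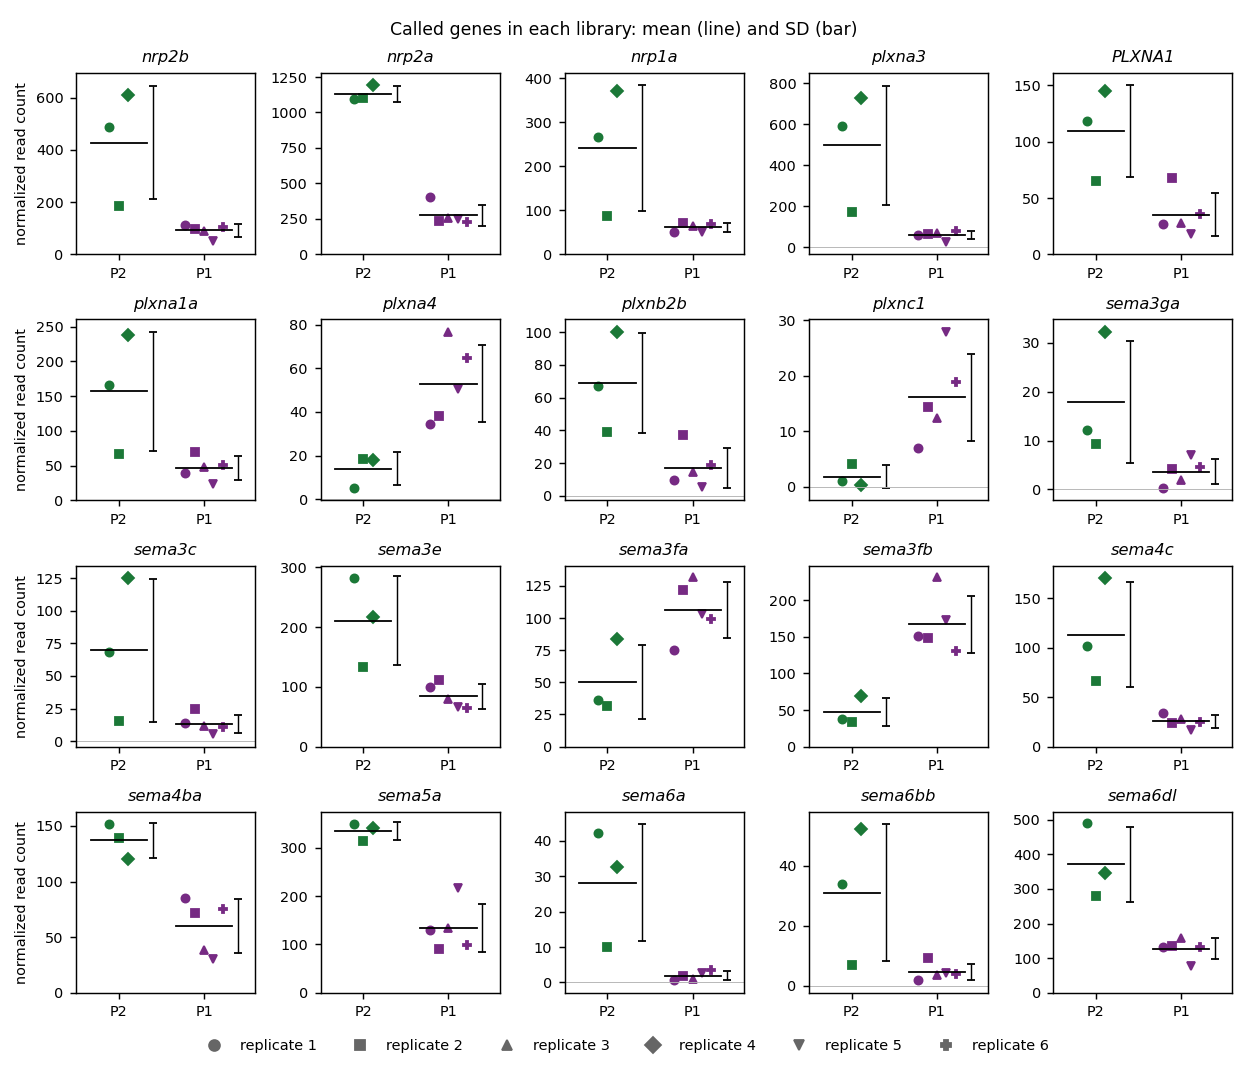
Normalized read counts (y axes, linear, one scale per gene) of the 20 called members in the P2 and P1 libraries, with a symbol for each replicate number, a line at the group mean and a bar for the SD. In most panels of genes higher in P2, the square of P2 replicate 2 is the lowest P2 point, while for nrp2a, sema4ba and sema5a the 3 P2 points lie close together.

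Class 3 semaphorins, the secreted ligands of neuropilin and plexin complexes, went in both directions, with 3 of 12 called higher and 2 lower. The Sema3E gene sema3e (ENSDARG00000036571), a ligand known from vessel patterning through plexin-D1, had 282, 133 and 217 in P2, against 99.7, 112, 79.0, 66.0 and 65.3 in P1. The groups did not overlap, and P2 replicate 2 and P1 replicate 2 came closest to each other (log2 fold change 1.28, SE 0.32, adjusted p = 0.0227). Its call was lost in 5 of 8 fits that left out 1 library, namely without P2 replicate 1 (adjusted p = 0.114), without P2 replicate 4 (0.0846), without P1 replicate 3 (0.0501), without P1 replicate 5 (0.0527) and without P1 replicate 6 (0.0511), and also with limma-voom (0.0527). The gene sema3c (ENSDARG00000034300), known in mouse for outflow tract development, had 68.5, 15.4 and 125 in P2, against 13.9, 24.3, 11.3, 5.37 and 11.1 in P1. P2 replicate 2 lay within the P1 range and below P1 replicate 2, whereas the other P2 libraries stood above every P1 library (log2 fold change 2.02, SE 0.62, adjusted p = 0.0454). The gene sema3ga (ENSDARG00000042545), whose mammalian counterpart Sema3G is a ligand of neuropilin-2, had low values throughout, with 12.2, 9.36 and 32.2 in P2, against 0.302, 4.08, 1.99, 6.98 and 4.55 in P1. Its groups did not overlap, and P1 replicate 1 held 1 read of it (log2 fold change 2.10, SE 0.64, adjusted p = 0.0462). These last calls lay close to the threshold. The sema3c call was lost in 6 of 8 fits that left out 1 library, namely without P2 replicate 1 (adjusted p = 0.162), without P2 replicate 4 (0.209), without P1 replicate 1 (0.0661), without P1 replicate 3 (0.078), without P1 replicate 5 (0.0962) and without P1 replicate 6 (0.0769), and in 6 of 13 other alternatives, at adjusted p of 0.0524 to 0.099. The sema3ga call was lost in 5 of 8 such fits, namely without P2 replicate 1 (adjusted p = 0.103), without P2 replicate 4 (0.19), without P1 replicate 1 (0.0728), without P1 replicate 3 (0.0897) and without P1 replicate 6 (0.063), and in 8 of 12 other alternatives, at adjusted p of 0.0535 to 0.0876.

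Both copies of the Sema3F gene, whose product repels axons through neuropilin-2, were lower in P2. The gene sema3fb (ENSDARG00000055373) had 38.3, 33.6 and 69.1 in P2, against 151, 148, 231, 173 and 131 in P1. The groups were far apart, with P2 replicate 4 the highest of P2 (log2 fold change -1.85, SE 0.32, adjusted p = 0.00309). The gene sema3fa (ENSDARG00000011163) had 36.0, 31.4 and 83.4 in P2, against 75.5, 122, 132, 103 and 99.2 in P1. P2 replicate 4 lay above P1 replicate 1, so the groups overlapped (log2 fold change -1.18, SE 0.36, adjusted p = 0.0443). Its call was lost in 6 of 8 fits that left out 1 library, namely without P2 replicate 1 (adjusted p = 0.165), without P2 replicate 2 (0.096), without P1 replicate 2 (0.0635), without P1 replicate 3 (0.0982), without P1 replicate 5 (0.0816) and without P1 replicate 6 (0.0742), and in 5 of 13 other alternatives, at adjusted p of 0.0513 to 0.0895. Marker lists of several cell types had genes called lower and none higher. Among them were 3 of 9 tested keratinocyte (33.3%), 6 of 19 endothelial (31.6%), 5 of 9 macrophage (55.6%) and 4 of 16 neuron markers (25%). The same test called 7.05% of all genes lower. Other lists differed, since 2 of 10 tested chondrocyte markers were called higher and 1 lower, and none of 12 tested muscle markers was called. The endothelial markers had summed levels of 320.3 to 463 in P2 and 655 to 934 in P1. The part of these cell types in the Sema3F gene differences was not tested.

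The other class 3 genes were not called. The gene of Sema3A, the ligand known to protect bone in mouse, was among them. Its copy sema3aa (ENSDARG00000019235) had 174, 153 and 386 in P2, against 205, 114, 149, 115 and 112 in P1, so that P2 replicate 4 stood high and the other P2 libraries lay within the P1 range (log2 fold change 0.68, SE 0.35, adjusted p = 0.201). The gene sema3d (ENSDARG00000017369), named here after its values were seen, had 66.2, 88.9 and 31.6 in P2, against 97.6, 197, 175, 86.2 and 117 in P1. The P2 values were mostly below those of P1 and overlapped them by P2 replicate 2 and P1 replicate 5, and the gene was not called (log2 fold change -1.15, SE 0.39, adjusted p = 0.0671), although it passed without P2 replicate 2 (adjusted p = 0.0277), in DESeq2 (adjusted p = 0.0294) and with size factors recomputed over the 8 libraries (adjusted p = 0.0488). The genes sema3ab, sema3b, sema3bl, sema3gb and sema3h were not called either.

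Of 7 tested class 4 semaphorins, which span the membrane and act mainly through type B plexins, 2 were called higher. The gene sema4c (ENSDARG00000079611), a ligand of plexin-B2, had 102, 66.3 and 171 in P2, against 33.8, 24.1, 28.3, 16.4 and 25.0 in P1. Every P2 library stood well above every P1 library (log2 fold change 2.04, SE 0.37, adjusted p = 0.00435). The gene sema4ba (ENSDARG00000074414) had 152, 139 and 120.3 in P2, against 85.2, 72.1, 38.3, 30.6 and 75.1 in P1. Its P2 libraries lay close together, with P2 replicate 2 in the middle, and above all P1 libraries (log2 fold change 1.27, SE 0.37, adjusted p = 0.0382). The sema4ba call was lost in 5 of 8 fits that left out 1 library, namely without P2 replicate 1 (adjusted p = 0.133), without P2 replicate 2 (0.0532), without P2 replicate 4 (0.0895), without P1 replicate 3 (0.0848) and without P1 replicate 5 (0.0745), and in 7 of 13 other alternatives, at adjusted p of 0.0531 to 0.08. The gene sema4ab (ENSDARG00000062352), a copy of the gene of Sema4A, known in mouse from immune cells, had 37.0, 31.9 and 66.4 in P2, against 85.8, 58.4, 76.6, 73.3 and 76.1 in P1. P2 replicate 4 lay within the P1 range and the other P2 libraries below it, and the gene was not called (log2 fold change -0.76, SE 0.32, adjusted p = 0.122). The genes SEMA4F, sema4bb, sema4e and sema4ga were not called either.

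In class 5, 1 of 3 genes was called. The gene sema5a (ENSDARG00000058821), whose product has been tied in mammals to both attraction and repulsion of axons, had 350.2, 315 and 340.2 in P2, against 129.6, 89.9, 134, 217 and 99.5 in P1. The P2 libraries lay within a narrow band above all P1 libraries, of which replicate 5 was the highest (log2 fold change 1.39, SE 0.31, adjusted p = 0.0133). The sema5a call was lost without P2 replicate 1 (adjusted p = 0.065) and without P2 replicate 4 (0.0517). Its paralogs sema5ba and sema5bb had few reads and were not called.

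Class 6 semaphorins, membrane proteins that act on type A plexins, had 3 of 6 genes called higher and none lower. The gene sema6a (ENSDARG00000102165), known in mouse as a ligand of plexin-A2 and plexin-A4, had the largest log2 fold change of the 44 tested members, with 42.1, 9.91 and 32.5 in P2, against 0.604, 1.85, 0.885, 2.68 and 3.58 in P1. The P1 libraries held few reads, between 2 and 11 each and 37 in all, and the groups did not overlap (log2 fold change 3.21, SE 0.58, adjusted p = 0.00414). The rank depended on the added 1, since with 5 added sema6a stood at 2.12, below plxna3 at 2.76. The gene sema6dl (ENSDARG00000011533), a Sema6D gene, had 490.0, 279 and 345 in P2, against 133, 135, 158, 77.3 and 132 in P1. All P2 libraries stood above all P1 libraries (log2 fold change 1.54, SE 0.31, adjusted p = 0.00746), and the call was lost without P2 replicate 1 (adjusted p = 0.0567). The gene sema6bb (ENSDARG00000061976), a Sema6B gene, had 33.9, 6.88 and 52.4 in P2, against 1.81, 9.08, 3.54, 4.03 and 3.90 in P1. P2 replicate 2 lay below P1 replicate 2 and above the other P1 libraries (log2 fold change 2.29, SE 0.64, adjusted p = 0.0329). The sema6bb call was lost in 6 of 8 fits that left out 1 library, namely without P2 replicate 1 (adjusted p = 0.13), without P2 replicate 4 (0.149), without P1 replicate 1 (0.0617), without P1 replicate 3 (0.0622), without P1 replicate 5 (0.0651) and without P1 replicate 6 (0.0586), and also without the filter on reads (0.0589) and with limma-voom (0.0886). The genes sema6ba, sema6d and sema6e were not called.

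The class 7 gene sema7a (ENSDARG00000078707), whose product binds plexin-C1 and beta-1 integrins, had 3.73, 7.71 and 10.2 in P2, against 13.9, 28.0, 14.8, 21.2 and 9.10 in P1. Its P2 values were mostly below those of P1, but P2 replicate 4 stood above P1 replicate 6, and it was not called (log2 fold change -1.16, SE 0.48, adjusted p = 0.118). It passed in DESeq2 (adjusted p = 0.0447).

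The 24 tested members without a call had log2 fold changes from -1.16 to 1.49. Another 4 members did not reach the minimum of 10 reads in 3 libraries. The sole type D plexin, plxnd1 (ENSDARG00000086057), the endothelial receptor known for Sema3E, had 6, 0 and 10 reads in P2, against 0, 3, 0, 0 and 5 in P1. The second plxnb2a row (ENSDARG00000094799) had 46 reads over the P2 libraries and 25 over the P1 libraries, sema4gb had 10 over P2 and 42 over P1, and sema4aa had 1 over P2 and 14 over P1. None of these showed groups without overlap. In a fit without the filter on reads none of the 4 was called, so no difference was detectable at this depth, where 3 reads correspond to 0.556 to 1.018 normalized read counts, depending on the library.

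Most genes called higher shared a pattern across the P2 libraries. P2 replicate 2 was the lowest P2 library in 14 of the 16 members called higher, all but nrp2a and sema4ba, and it was the highest P2 library in 2 of the 4 called lower. Over all genes called higher it was the lowest in 964 of 1398 (69.0%). This is the library with muscle markers at 28048, and their part in the pattern was not tested. Without it 17 members were called higher and 4 lower, with 18 of the 20 calls kept, and 3 members that were not called with all libraries, plxnb2a, plxnb3 and sema3d, passed. Without P2 replicate 1, by contrast, 5 were called higher and 2 lower, and without P2 replicate 4, 6 were called higher and 4 lower. The shares called over all genes moved in the same fits. They were 11% higher and 10.6% lower without P2 replicate 2. Without P2 replicate 1 they were 2.19% and 2.68%, and without P2 replicate 4 they were 2.46% and 3.71%.

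**Figure D3:**
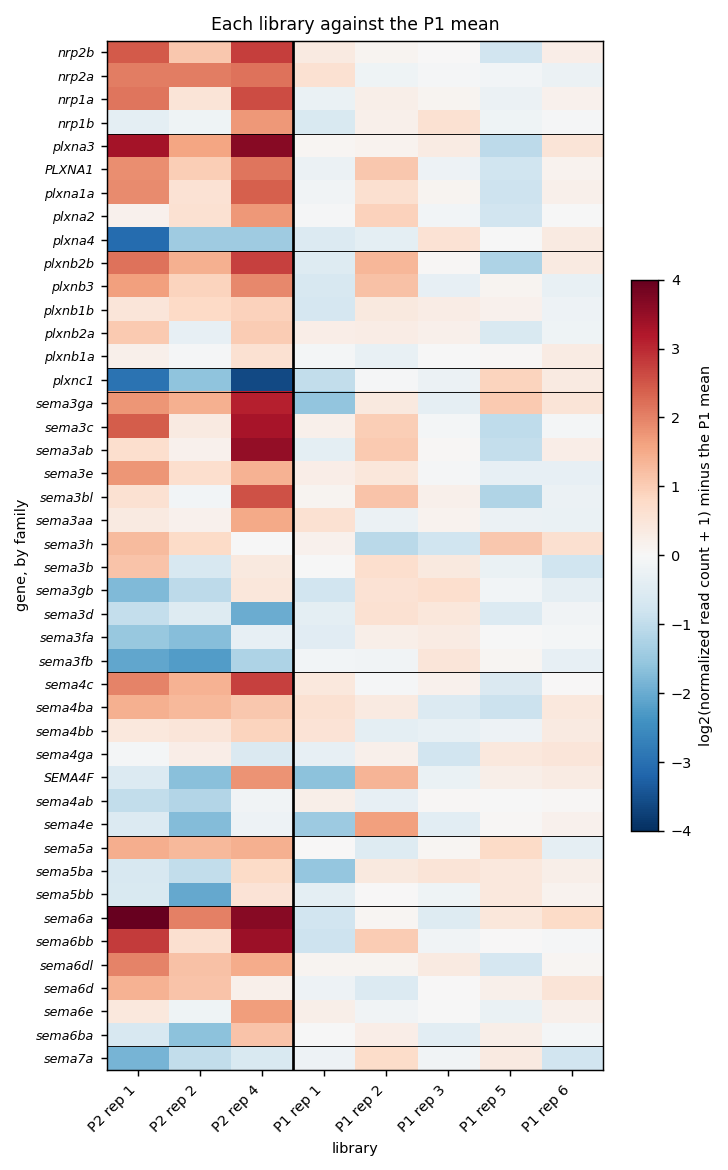
Difference of each library from the P1 mean, in log2(normalized read count + 1), for the 44 tested members (rows, grouped by family) in the 3 P2 libraries on the left and the 5 P1 libraries on the right, in red for higher, blue for lower, with the scale ending at 4 in either direction. Red in the columns of P2 replicates 1 and 4 is paler in that of P2 replicate 2 for nrp2b, nrp1a, plxna3, sema3c, sema6a and sema6bb.

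The semaphorin and receptor pairs named here as known, other than that of Sema4D, were set side by side, with every listed copy. For Sema3F and its co-receptor neuropilin-2, the ligand genes had log2 fold changes of -1.85 (sema3fb) and -1.18 (sema3fa), and the receptor genes 2.07 (nrp2a) and 2.10 (nrp2b). For Sema3G and neuropilin-2, the ligand genes had 2.10 (sema3ga) and -0.79 (sema3gb, not called). The row sema3bl, whose identifier has the symbol SEMA3G in the table of zebrafish gene names, had 1.02 and was not called. For Sema3A and neuropilin-1, the values were 0.68 for sema3aa and 1.45 for sema3ab, neither called, and 1.75 for nrp1a and 0.39 for nrp1b, the last not called. The sema3ab row passed in DESeq2 (adjusted p = 0.0303), and without P2 replicate 4 the nrp1b value was -0.29. For Sema4C and plexin-B2, they were 2.04 for sema4c, 2.10 for plxnb2b and 0.58 for the tested plxnb2a row, which was not called. For Sema5A and plexin-B3 they were 1.39 for sema5a and 1.49 for plxnb3, which was not called. For Sema6A and its receptors the directions differed, with 3.21 for sema6a, 0.83 for plxna2, which was not called, and -1.98 for plxna4. For Sema6D and plexin-A1 the values were 1.54 for sema6dl, 1.67 for PLXNA1 and 1.62 for plxna1a. The row sema6d, at 0.91, was not called, and the table of zebrafish gene names gives its identifier the symbol sema6ca, so whether it belongs to this pair is uncertain. For Sema7A and plexin-C1 they were -1.16 for sema7a, which was not called, and -2.72 for plxnc1. For Sema7A and beta-1 integrin the directions differed, with 1.45 for itgb1a and 1.75 for itgb1b, both called higher. For Sema3E and plexin-D1 the ligand gene sema3e was called higher at 1.28 while plxnd1 had too few reads to be tested. Apart from itgb1a and itgb1b, the copies that no earlier paragraph gives were named after their values were seen. These are values of the same 8 libraries, and no pair was tested as a pair.

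Zebrafish carry many of these genes as duplicates from the whole-genome duplication of teleost fish, and the balance within a pair needs no scaling between libraries beyond the added 1. For 10 pairs with both copies tested, the log2 ratio of the first copy over the second was computed in each library and compared by a two-sided exact permutation test over the 56 ways to divide the libraries, of which the smallest p is 0.0179. This comparison was added after the data were seen. The ratio nrp1a/nrp1b averaged 4.30 ± 1.01 in P2 (SD, n = 3) and 2.94 ± 0.34 in P1 (SD, n = 5), and the groups did not overlap (exact p = 0.0179, adjusted 0.0595 over the 10 pairs). The ratio sema3ga/sema3gb averaged 1.04 ± 0.58 in P2 and -1.84 ± 0.99 in P1, so the first copy had more reads than the second in each P2 library and fewer in each P1 library (exact p = 0.0179, adjusted 0.0595). The ratio sema6ba/sema6bb averaged -3.35 ± 0.66 in P2 and -0.68 ± 0.58 in P1 (exact p = 0.0179, adjusted 0.0595). Here sema6ba had few reads, with 3, 0 and 20 in P2 and 7, 15, 6, 10 and 6 in P1, so the ratio leans on the added 1. The differences of 2.89 for sema3ga/sema3gb and -2.67 for sema6ba/sema6bb became 1.87 and -1.75 with 5 added in place of 1. The pairs plxnb2a/plxnb2b, with a difference of -1.53, and sema3fa/sema3fb, with 0.67, also did not overlap (exact p = 0.0357, adjusted 0.0714 for each). None of the 10 pairs passed an adjusted p of 0.05. A pair at the smallest p of 0.0179 could pass only if enough other pairs reached it too. The lack of a pass therefore does not show equal ratios. For nrp2a/nrp2b, both called higher, the ratios were 1.56 ± 0.86 in P2 and 1.59 ± 0.46 in P1 (exact p = 0.964).

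**Figure D4:**
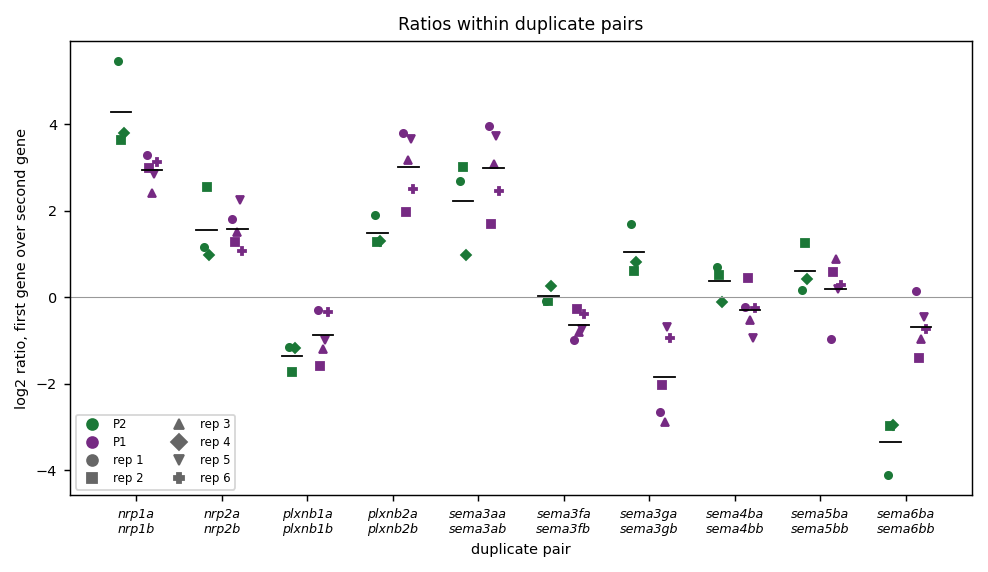
Log2 ratio of the normalized read counts (each + 1) of the first over the second copy of 10 duplicate pairs, with a point for each P2 library (green, left in each pair) and each P1 library (purple, right), symbols for the replicate number and lines at the group means. The green points lie apart from the purple ones for nrp1a/nrp1b, plxnb2a/plxnb2b, sema3fa/sema3fb, sema3ga/sema3gb and sema6ba/sema6bb, and overlap them in the other 5 pairs.

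The genes around the receptors gave no common direction. Of 76 tested genes in lists of partner receptors, VEGF ligands and cytoplasmic partners of plexins, 5 were called higher (6.58%) and 7 lower (9.21%), close to the shares of all genes (7.57% and 7.05%), with a median log2 fold change of 0.25 against 0.00. The called ones are given singly and not as a feature of the lists. Both zebrafish copies of beta-1 integrin, a subunit of the receptor for Sema7A, were called higher. The gene itgb1a had 1273, 599 and 1712 in P2, against 532, 382, 369, 323 and 414 in P1, all P2 libraries above all P1 libraries (log2 fold change 1.45, SE 0.35, adjusted p = 0.0175). Its copy itgb1b had 197, 69.9 and 134 in P2, against 35.4, 45.2, 44.7, 21.5 and 37.4 in P1, also without overlap (log2 fold change 1.75, SE 0.38, adjusted p = 0.0116). The itgb1a call was lost without P2 replicate 1 (adjusted p = 0.0858) and without P2 replicate 4 (0.089), and the itgb1b call without P2 replicate 1 (adjusted p = 0.0756) and without P2 replicate 4 (0.0523). The alpha-1 integrin gene itga1, named after its values were seen, had a negative value and was not called (log2 fold change -0.78, SE 0.39, adjusted p = 0.186). The gene mst1rb, a copy of the gene of the receptor kinase Ron, a partner of type B plexins, had 0.339, 2.20 and 1.46 in P2, against 29.9, 32.1, 41.8, 20.9 and 44.5 in P1. It was nearly absent from P2, well apart from P1, and was called lower (log2 fold change -3.94, SE 0.45, adjusted p = 0.000214).

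Of the 16 partner receptor genes 2 were called higher (12.5%) and 3 lower (18.8%). Of the 6 tested VEGF ligand genes 1 was called lower (16.7%). The same test called 7.57% of all genes higher and 7.05% lower. VEGF shares neuropilins with the semaphorins. The gene kdrl, a zebrafish VEGF receptor gene of endothelium, had 0, 7.98 and 20.8 in P2, against 32.3, 125, 68.2, 76.0 and 32.8 in P1, below P1 in each P2 library (log2 fold change -3.36, SE 0.81, adjusted p = 0.0176). The gene flt1, of VEGF receptor 1, had 4.41, 0.275 and 2.05 in P2, against 12.7, 19.6, 21.2, 20.9 and 12.4 in P1, also without overlap (log2 fold change -2.70, SE 0.52, adjusted p = 0.00617). The ligand gene vegfaa had 62.1, 61.1 and 52.4 in P2, against 221, 86.0, 149.8, 151 and 148 in P1, again with every P2 library lower (log2 fold change -1.30, SE 0.32, adjusted p = 0.0196). Its copy vegfab, named after its values were seen, had means of 26.8 in P2 and 21.1 in P1. It was not called (log2 fold change 0.31, SE 0.37, adjusted p = 0.605). The kdrl call was lost without P2 replicate 1 (adjusted p = 0.0637), and also with edgeR's quasi-likelihood test (0.0641) and with limma-voom (0.0589), and the vegfaa call without P2 replicate 1 (adjusted p = 0.0681) and without P2 replicate 4 (0.0769). Most endothelial markers were also lower in P2, with 6 of 19 tested called lower, and 17 log2 fold changes negative and 2 positive. The called ones were cdh5, pecam1, cldn5b, stab1, mrc1a and kdrl itself. That list shares kdrl and kdr with the partner receptors. The positive ones were sox18 (0.88) and stab2 (0.35), neither called. The marker erg, not tested, ran the other way, with 8.48, 1.38 and 13.8 in P2, against 0.302, 0.185, 0.221, 0.805 and 0 in P1. The part of these markers in the VEGF receptor differences was not tested.

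Among 54 tested genes of cytoplasmic partners, 3 were called higher and 3 lower (5.56% each, below the shares of all genes). The gene farp1, of an exchange factor for small GTPases, had 97.0, 46.0 and 112 in P2, against 22.1, 34.1, 18.8, 13.4 and 22.1 in P1, all P2 values above all P1 values (log2 fold change 1.86, SE 0.40, adjusted p = 0.0104). Its relative farp2, known to bind plexin-A1, had 459.8, 244 and 461 in P2, against 148, 102, 168, 167 and 137 in P1, with the same separation (log2 fold change 1.38, SE 0.31, adjusted p = 0.0122). The gene trioa had 178, 60.6 and 199.9 in P2, against 43.5, 62.8, 56.7, 36.5 and 66.6 in P1, where P2 replicate 2 fell within the P1 range (log2 fold change 1.30, SE 0.40, adjusted p = 0.0475). The farp1 call was lost without P2 replicate 1 (adjusted p = 0.0637) and without P2 replicate 4 (0.0585), and the farp2 call without P2 replicate 1 (adjusted p = 0.0735) and without P2 replicate 4 (0.062). The trioa call was lost in 6 of 8 fits that left out 1 library, namely without P2 replicate 1 (adjusted p = 0.188), without P2 replicate 4 (0.198), without P1 replicate 1 (0.0826), without P1 replicate 3 (0.0783), without P1 replicate 5 (0.101) and without P1 replicate 6 (0.063), and in 8 of 13 other alternatives, at adjusted p of 0.0501 to 0.0967.

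Those lower were gipc2, fes and cfl1l. The gene gipc2, of a family of PDZ adaptors known to bind neuropilin and plexin tails, had 4.41, 12.7 and 2.05 in P2, against 36.9, 49.8, 48.0, 51.3 and 49.1 in P1, far below in each P2 library (log2 fold change -2.97, SE 0.46, adjusted p = 0.00163). The gene of the kinase Fes, a plexin-A1 effector known also from blood cells, had 1.02, 2.75 and 0.293 in P2, against 12.1, 5.19, 6.64, 5.37 and 12.4 in P1, without overlap (log2 fold change -2.04, SE 0.54, adjusted p = 0.0263). The gene cfl1l, a cofilin-type actin severing gene, had 14.9, 213 and 9.37 in P2, against 229.6, 947, 253, 339 and 276 in P1, with P2 replicate 2 just below the lowest P1 library (log2 fold change -3.41, SE 0.80, adjusted p = 0.0158). The cofilin gene cfl1, named after its values were seen, had means of 3596 in P2 and 3550.5 in P1. It was not called (log2 fold change -0.03, SE 0.51, adjusted p = 0.978). The fes call was lost in 5 of 8 fits that left out 1 library, namely without P2 replicate 1 (adjusted p = 0.0848), without P2 replicate 4 (0.101), without P1 replicate 1 (0.0523), without P1 replicate 3 (0.0517) and without P1 replicate 6 (0.0627), and also without the filter on reads (0.0608) and with limma-voom (0.0863). The cfl1l call was lost without P2 replicate 1 (adjusted p = 0.0913) and without P2 replicate 4 (0.0898), and also with edgeR's quasi-likelihood test (0.111) and with robust shrinkage (0.051). Macrophage markers were also lower in P2, as given for plxnc1. Keratinocyte markers summed to 341 to 1864 in P2 and 1747 to 22726 in P1. The part of either list in these differences was not tested.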

How the data were processed

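The libraries were made by the SMART-Seq 2.0 and Nextera XT methods from about 30000 to 50000 sorted cells each, and the single-end reads were mapped by the authors to GRCz11 with the nf-core rnaseq pipeline 3.0, run with default settings on the Ensembl annotation. What these settings did with strand, overlapping genes and near-identical copies is not spelled out in the sources used here, so values of close paralogs are uncertain. The deposited signal per gene is a count scaled by the authors with a size factor for each library (2.947 to 5.396). In every library 100% of values were whole reads within 0.01 of a read. The 10 columns that match no sample and the authors' 2 tables of log2 fold changes and p-values were not used.

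The values were analysed as log2(normalized read count + 1) with limma 3.58.1 (lmFit, eBayes with trend) in R 4.3.3, over the 18475 genes that reached 10 recovered reads in 3 or more libraries, with Benjamini-Hochberg adjustment over these genes and a call at an adjusted p under 0.05. The added 1 understates the change of low genes. Alternatives were edgeR 4.0.16 and DESeq2 1.42.0 on the recovered reads, which called 1982 and 3685 genes, limma-voom, other scalings, pseudocounts and filters, leaving out each library, and a replicate block. Reads are not unique molecules, and the labels do not say whether replicates came from separate clutches, so p-values measure the spread between libraries, which may be technical.

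Each called member, each other member without overlap, the member with the highest mean per family and population, called partner genes and sp7 were named with their values. The members and lists were chosen with earlier results of these data known. Identifiers of 47 of the 48 members were found in a table of zebrafish gene names, 26 of them with the same symbol.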

Additional observations from a re-analysis of the deposited data

Results flagged for a closer look

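The nrp2a value of P1 replicate 1 was 405 normalized read counts, while the other P1 libraries held 225 to 257. Its gap to the nearest library was 0.822 of the P1 range, above the 0.71 that Dixon's test allows for 5 samples. This was the only such value among the 26 named members looked at in P1, where chance flags about 1 in 20 groups. The nrp2a call was kept without that library.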

How the results depend on the processing

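With all 8 libraries 20 members were called, 16 higher and 4 lower, and 12 partner genes. No called gene changed direction under the 23 alternatives. Of the named genes that were not called, nrp1b turned to -0.29 without P2 replicate 4 (-0.29 to 0.78 over the fits that left out 1 library) and to -0.08 on the 4 libraries of replicates 1 and 2, with or without the replicate block, and plxna2 turned to -0.05 on those 4 libraries. The calls of nrp2a, nrp2b, plxna3, sema3fb, sema4c and sema6a were kept under each of the 21 alternatives that used more than the 4 libraries of replicates 1 and 2, except that sema6a could not be tested with at least 10 reads in every library. The tool with fewest calls was limma-voom, with 12 members, 9 of them higher, and 1292 genes in all, against 2700. Over all genes the count was 1741 with at least 10 reads in every library. Leaving out 1 library gave 7 to 21 members, 5 to 17 higher, 2 to 4 lower and 3 to 22 partner genes. The lowest counts came without P2 replicate 1 (901 genes in all, 0 partner genes higher). Over all genes the count was 1139 without P2 replicate 4, 1675 without P1 replicate 3 and 1436 without P1 replicate 5. The highest count of these fits, 4004 genes, came without P2 replicate 2. The causes of these shifts were not tested. P2 and P1 share replicate numbers 1 and 2 only, and the labels do not say what a number marks. The titles of same-numbered libraries also share a prefix, whose meaning is not given. Deviations of same-numbered libraries correlated at 0.00 and -0.13. So few libraries cannot show whether P2 and P1 of a number came from the same larvae. The numbers were not taken as pairs in the main fit. With the replicate block, on the 4 libraries of replicates 1 and 2, 1 member was called, 1 higher and 0 lower, with 3 partner genes and 454 genes in all. With no block on the same 4 libraries, 0 members were called, 0 higher and 0 lower, with 1 partner gene and 199 genes in all. With the number as a random effect over all 8 libraries, 15 members were called higher and 3 lower. The ratio differences of the duplicate pairs sema3ga/sema3gb and sema6ba/sema6bb moved to 1.87 and -1.75 with 5 added. Depth limited what could be seen of plxnd1, sema4aa, sema4gb and the second plxnb2a row.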
